A study of Homo sapiens with 8 samples.

Results

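The 48 genes described here encode the working parts of the lysosome: 10 cathepsins and other proteases, 9 glycosidases, 3 sulfatases, 6 lipid hydrolases and activators, 6 membrane proteins and 14 subunits or accessory proteins of the vacuolar proton pump (V-ATPase). They are named genes, taken by symbol from the 25593 rows of the table, and each of the 48 had a row. Of these, 47 reached 1 FPKM (fragments mapped to a gene, scaled to transcript length and library size) in at least 2 libraries and were tested. The exception, LGMN, which encodes the protease legumain, was listed at 0.264 FPKM or less in all 8 libraries.

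RNA was sequenced from HL60 and Kasumi-1, both established human acute myeloid leukaemia lines, the second of which carries a RUNX1-RUNX1T1 fusion. The 4 groups, of 2 libraries each, were HL60 given 100 nM cinobufagin for 24 h, untreated HL60, Kasumi-1 given 100 nM cinobufagin for 24 h and untreated Kasumi-1. Cinobufagin is a toad-venom steroid of the bufadienolide class that inhibits the sodium-potassium pump. The labels give no vehicle for the untreated cells, and HL60 grew in 10% serum where Kasumi-1 grew in 20%, so line and serum cannot be told apart.

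Lysosomes break down proteins, sugars, sulfated glycans and lipids with hydrolases that work at acid pH. The V-ATPase keeps them acid: its cytosolic V1 sector splits ATP and turns a rotor that drives protons through the membrane-embedded V0 sector. Many of these genes are known targets of the MiT/TFE transcription factors (TFEB, TFE3 and their relatives), which bind a CACGTG-centred sequence near their starts and are held in the cytosol by the kinase complex mTORC1 on the lysosome surface. Myeloid cells are rich in several of these proteases, which act in granules and in antigen handling.

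The 8 libraries each had 10623 to 11371 genes at 1 FPKM or more, and a relative depth of 0.79 to 1.06 against the first untreated HL60 library. Markers set the lines apart as labelled: RUNX1T1, CD34 and TRH lay between 16.1 and 147 FPKM in Kasumi-1 and had 0 FPKM in HL60. They belong to a list of 7 line identity markers, MYC and MPO among them, that also moved with the drug. The list summed to 278 to 306 FPKM in treated HL60 and 4072 to 4120 in untreated HL60, with 1 gene higher and 3 lower. In Kasumi-1 it summed to 7918 to 7930 FPKM treated and 6636 to 6734 untreated, with 2 higher and 2 lower. Most genes that define other cell types were near 0, with MS4A1 and COL3A1 listed at 0 in all 8 libraries, while EPCAM lay between 72.7 and 78.5 FPKM in Kasumi-1. The 5 B cell markers summed to 14.5 to 15.3 FPKM in untreated Kasumi-1 and 6.71 to 10.9 in treated Kasumi-1. They summed to 4.11 to 4.12 FPKM in untreated HL60 and 0.505 to 0.949 in treated HL60. Of these, 2 were tested, and both fell in HL60 and neither passed in Kasumi-1. Of 8 monocyte and macrophage markers, 4 rose in treated HL60 (CD14, CD163, CD68 and ITGAM). Their list summed to 70.6 to 74.2 FPKM in treated HL60 and 16 to 16.5 in untreated HL60, with MRC1 and MARCO at or near 0 throughout. In Kasumi-1 it summed to 26.5 to 28.4 FPKM treated and 15 to 15.3 untreated. Of its 5 tested genes, 1 rose, 1 fell and 3 did not pass in Kasumi-1, with a median log2 change of -0.02. Among all genes tested, 36.0% rose and 37.6% fell in HL60, and 10.1% rose and 16.2% fell in Kasumi-1. Of the T and NK cell markers, NKG7, a granule protein gene, had 97.7 and 88.4 FPKM in treated HL60, against 25.2 and 26.3 FPKM in untreated HL60 (log2 1.81, adjusted p 0.000544). It made up nearly all of that list, whose sum was 89.9 to 98.9 FPKM in treated HL60 and 25.6 to 26.8 in untreated HL60, while CD3G and KLRD1 were at 0 in all 8 libraries and CD3D, CD3E, CD2 and GNLY reached at most 1.15 FPKM. The list summed to 2.46 to 2.68 FPKM in treated Kasumi-1 and 0.934 to 2.11 in untreated Kasumi-1. The part of these markers in the results below was not tested. FPKM is a share of a library, so fewer cells of a kind and less RNA per cell cannot be told apart.

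In HL60, the members moved mostly upward with cinobufagin, and all 14 V-ATPase members rose. Lysosomal genes outside the members differed by list. Of 27 other hydrolases and activators tested, 9 rose and 14 fell, and of 14 other V-ATPase subunits and assembly factors tested, 7 rose and 5 fell. Of 15 other membrane and luminal proteins tested, 11 rose (73.3%, beside 70.2% of the members) and 4 fell. Of the 47 tested members, 33 rose and 9 fell at an adjusted p under 0.05, and 5 did not pass (limma, Benjamini-Hochberg over all 12511 genes tested). Among all genes tested in HL60, 36.0% rose and 37.6% fell. The median log2 change of the members was 0.81, beside -0.01 over all genes. Beside the V-ATPase, 8 of 9 proteases and all 6 membrane proteins rose, whereas 4 of 9 glycosidases and 5 of 6 lipid hydrolases and activators fell. Both treated libraries lay above both untreated ones for 34 members and below them for 10, with 42.2% and 44.7% of all genes doing the same. Summed over the 14 V-ATPase genes, the level was 2335 and 2216 FPKM in treated HL60, against 822 and 780 FPKM in untreated HL60. Summed over the 28 hydrolases and activators, it was 1603 and 1678 FPKM in treated HL60, against 1159 and 1181 FPKM in untreated HL60.

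In Kasumi-1 the same dose and time gave smaller changes. Of the 47 members, 25 rose, 2 fell (CTSH and LIPA) and 20 did not pass, while 10.1% of all genes rose and 16.2% fell. The median log2 change was 0.24 for the members and -0.04 for all genes. The 14 V-ATPase members, which all rose in HL60, had 6 risers in Kasumi-1. Their summed level was 901 and 842 FPKM in treated Kasumi-1, against 721 and 684 FPKM in untreated Kasumi-1. Of 9 glycosidases, 6 rose in Kasumi-1 and 0 fell, with GAA, MAN2B1 and NAGLU not past the test. Both treated libraries lay above both untreated ones for 33 members and below them for 4, with 25.6% and 35.9% of all genes doing the same. Over all genes, rises made up 38.5% of the Kasumi-1 calls, and 51.7% after median-ratio rescaling or 48.3% after quantile normalization of the libraries. Of the 25 risers, 13 kept their call in each of the 16 alternative fits, and neither fall did. The count of risers was 15 without untreated Kasumi-1 library 1, 16 without untreated library 2, 16 without treated library 1 and 13 with Kasumi-1 fitted alone. Those 13 were CTSB, CTSD, TPP1, GLA, GLB1, NEU1, MANBA, ARSB, ASAH1, SMPD1, ATP6AP1, ATP6V0C and ATP6V0D1.

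Set side by side, 17 members rose in both lines, where 6.49% of all genes did so. Another 15 rose in HL60 and did not pass in Kasumi-1, a pattern whose share of all genes is not given here. LIPA was the 1 member that fell in both, as 10.6% of all genes did. The change was larger in size in HL60 for 38 of 47 members, and the signs matched for 31 of 47. The same counts over all genes are not given here. Across the 47 members the changes of the lines had a Pearson r of 0.25 and a Spearman rho of 0.05. Over all 12511 genes tested the Pearson r was 0.29, near that of the members. These values are a description over genes that share the same libraries. The difference between the changes, tested as an interaction (Kasumi-1 minus HL60), was negative for 27 members and positive for 13, while 33.1% of all genes had a negative difference and 30.1% a positive one (63.1% together). The 12 V-ATPase genes and the 7 proteases with a called difference all had the more positive change in HL60. ATP6V0A1, among the 12, was at or near 0 FPKM in every Kasumi-1 library, so its difference only restates its HL60 rise.

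**Figure D1:**
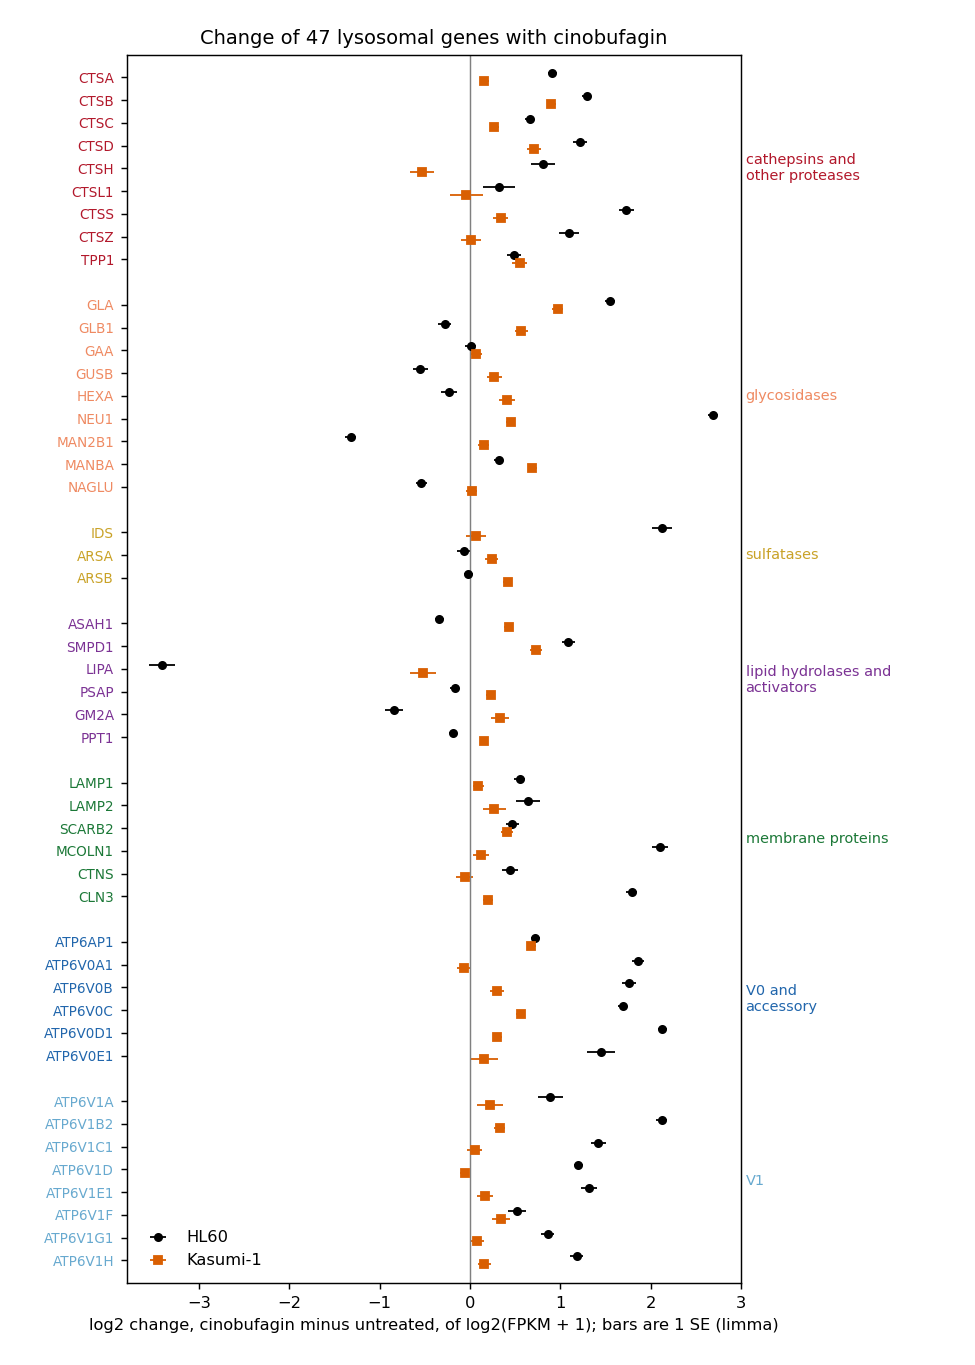
Log2 change with cinobufagin, on the log2(FPKM + 1) scale, of the 47 tested genes by role, in HL60 (black circles) and Kasumi-1 (orange squares), with bars of 1 SE from limma. The V-ATPase genes in HL60 lie between 0.52 and 2.13, all right of 0, and the Kasumi-1 points of all roles lie between -0.53 and 0.97.

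The promoters of 33 of the 48 genes were in the RefSeq table (GRCh38.p14, 250 bases before to 50 after the gene start). CACGTG was present in 10 of them (30.3%), beside 7.26% of the 35116 promoters in the table and 9.59% of the 12203 promoters of genes tested here. The longer TCACGTGA, which contains it, was in 7 of the 33 (21.2%), beside 0.98% of all promoters and 1.79% of those of tested genes, and GTCACGTG, read on both strands and likewise containing it, in 9 (27.3%), beside 2.4% and 3.96%. CACGTG and TCACGTGA are their own reverse complements, so 1 search covers both strands. The 10 members were CTSA, CTSD, GAA, NEU1, LAMP1, MCOLN1, CLN3, ATP6V0B, ATP6V0D1 and ATP6V1G1, with 20 copies in all, 15 of which begin within 80 bases before the start. Printed here are the 5 that hold the motif and rose in both lines, so that its place can be seen, with CACGTG in capitals:
CTSD promoter, chr11:1763878-1764177, minus strand: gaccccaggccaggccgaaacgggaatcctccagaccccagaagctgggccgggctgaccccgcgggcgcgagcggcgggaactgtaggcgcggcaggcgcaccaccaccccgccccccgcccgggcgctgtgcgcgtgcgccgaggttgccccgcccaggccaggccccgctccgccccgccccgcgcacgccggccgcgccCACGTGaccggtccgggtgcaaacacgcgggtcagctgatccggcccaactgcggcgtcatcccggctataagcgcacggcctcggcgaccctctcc
NEU1 promoter, chr6:31862772-31863071, minus strand: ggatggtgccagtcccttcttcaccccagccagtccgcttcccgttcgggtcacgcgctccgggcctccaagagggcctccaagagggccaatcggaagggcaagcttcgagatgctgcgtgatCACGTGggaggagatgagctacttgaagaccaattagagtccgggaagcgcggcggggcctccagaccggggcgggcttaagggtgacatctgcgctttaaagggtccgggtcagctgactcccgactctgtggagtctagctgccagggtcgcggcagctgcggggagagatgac
ATP6V0B promoter, chr1:43974710-43975009, plus strand: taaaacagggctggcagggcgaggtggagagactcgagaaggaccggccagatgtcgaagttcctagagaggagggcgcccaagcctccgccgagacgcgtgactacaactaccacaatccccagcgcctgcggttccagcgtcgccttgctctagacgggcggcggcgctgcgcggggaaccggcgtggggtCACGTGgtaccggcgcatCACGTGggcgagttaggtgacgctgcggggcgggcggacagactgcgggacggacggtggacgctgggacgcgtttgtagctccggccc
ATP6V0D1 promoter, chr16:67481108-67481407, minus strand: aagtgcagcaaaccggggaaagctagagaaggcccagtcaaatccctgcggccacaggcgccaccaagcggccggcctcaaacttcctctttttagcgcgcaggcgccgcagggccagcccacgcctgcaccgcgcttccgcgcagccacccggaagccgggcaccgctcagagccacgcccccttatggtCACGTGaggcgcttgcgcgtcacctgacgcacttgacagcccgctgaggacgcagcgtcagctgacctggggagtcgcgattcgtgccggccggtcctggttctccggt
CLN3 promoter, chr16:28492025-28492324, minus strand: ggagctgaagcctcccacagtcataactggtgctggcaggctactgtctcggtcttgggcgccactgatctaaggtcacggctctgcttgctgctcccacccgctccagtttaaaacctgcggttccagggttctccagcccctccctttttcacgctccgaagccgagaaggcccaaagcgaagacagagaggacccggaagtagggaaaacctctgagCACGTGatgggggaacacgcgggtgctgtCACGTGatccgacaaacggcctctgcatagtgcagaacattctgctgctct

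For contrast, these are the promoters of 2 members without CACGTG in the window, GLA, which rose in both lines, and LIPA, which fell in both:
GLA promoter, chrX:101407876-101408175, minus strand: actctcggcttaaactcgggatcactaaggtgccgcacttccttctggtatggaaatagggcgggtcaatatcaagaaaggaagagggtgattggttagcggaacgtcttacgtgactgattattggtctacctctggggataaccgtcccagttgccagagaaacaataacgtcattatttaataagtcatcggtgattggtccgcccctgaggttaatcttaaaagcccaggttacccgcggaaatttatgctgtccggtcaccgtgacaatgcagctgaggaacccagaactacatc
LIPA promoter, chr10:89414630-89414929, minus strand: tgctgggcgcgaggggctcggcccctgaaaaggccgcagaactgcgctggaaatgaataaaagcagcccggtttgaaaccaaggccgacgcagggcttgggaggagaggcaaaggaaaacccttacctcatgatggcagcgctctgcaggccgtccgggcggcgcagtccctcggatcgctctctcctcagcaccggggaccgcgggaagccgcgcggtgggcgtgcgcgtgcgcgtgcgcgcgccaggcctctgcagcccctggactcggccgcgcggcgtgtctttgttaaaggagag

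In HL60, 9 of the 10 members with CACGTG rose and 0 fell, with a median log2 change of 1.49, and of the 23 without it 15 rose and 6 fell, with a median of 0.52. In Kasumi-1, 5 of the 10 rose and 0 fell (median 0.18), and of the 23 without it 12 rose and 2 fell (median 0.27). Over all genes tested, 36.0% rose and 37.6% fell in HL60 (median -0.01), and 10.1% rose and 16.2% fell in Kasumi-1 (median -0.04). The same split by motif over all genes is not given here. GAA was the member with the motif that did not pass in HL60. It lay between 0.494 and 0.542 FPKM in the HL60 libraries and passed the filter through Kasumi-1 alone. These counts describe the letters in the window and do not show that a factor binds there. GLA, which has no CACGTG in this window, rose in both lines, and sites outside the window were not searched. CACGTG was uneven over the roles. It was in 3 of 5 membrane proteins, 2 of 5 V0 and accessory genes, 2 of 6 glycosidases, 2 of 7 proteases and 1 of 4 V1 genes. It was in 0 of 4 lipid hydrolases and activators and 0 of 2 sulfatases, so the split by motif is partly a split by role. Any part of the motif or of the role in the changes was not tested.

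**Figure D2:**
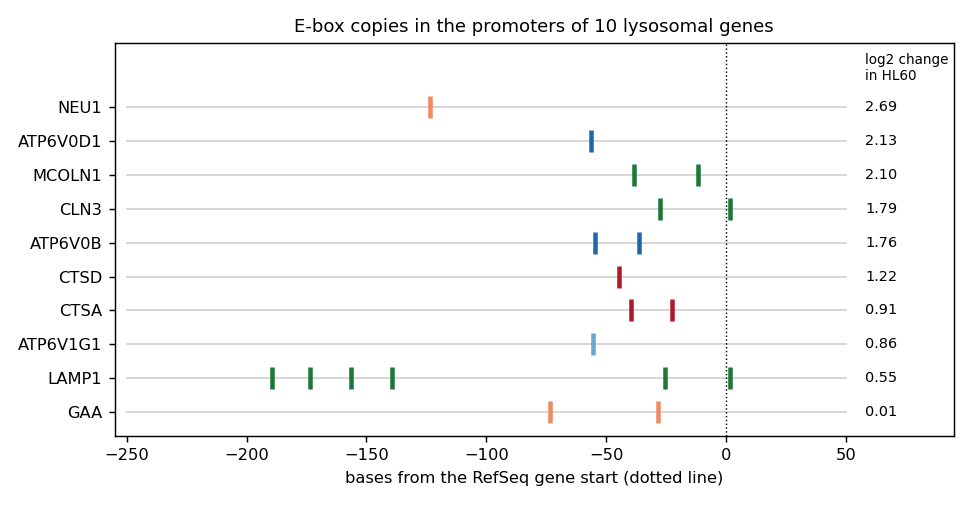
Place of each CACGTG (coloured bar at its centre, by role of the gene) in bases from the RefSeq gene start, for the 10 genes that hold it, ordered by their log2 change in HL60 (right). Of the 20 copies, 6 belong to LAMP1, and the log2 changes run from 2.69 for NEU1 to 0.01 for GAA, which stayed under 1 FPKM in HL60.

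Of the 9 proteases tested, 8 rose in HL60 and 5 in Kasumi-1. CTSS, a cysteine protease that trims the invariant chain of class II antigen-presenting molecules, stood at 67.9 and 70.9 FPKM in treated HL60, against 18.6 and 21.9 FPKM in untreated HL60. This was the largest protease change in that line, a log2 change of 1.73 ± 0.08 (SE, adjusted p 3.59e-06). In Kasumi-1 the gene was lower in level and moved less, with 8.35 and 8.61 FPKM in treated Kasumi-1 and 6.49 and 6.51 FPKM in untreated Kasumi-1. Its log2 change there was 0.34 (adjusted p 0.0254), a call lost when any 1 Kasumi-1 library was left out (adjusted p 0.0138 to 0.0963 over the alternatives). The difference between the lines was -1.39 (adjusted p 9.76e-05).

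CTSB and CTSD rose in both lines. CTSB, a cysteine protease with both endo- and exopeptidase action, had 60.5 and 63 FPKM in treated HL60 and 24.2 and 25.2 FPKM in untreated HL60. In Kasumi-1 it had 34.5 and 33.6 FPKM with the drug and 18.2 and 17.4 FPKM without it, and its log2 change of 0.90 ± 0.05 (adjusted p 0.000714) was the largest of any protease in that line. CTSD, the main aspartic protease of lysosomes, had the highest level among the proteases by its mean over all 8 libraries. It reached 230 and 265 FPKM in treated HL60, against 102 and 110 FPKM in untreated HL60, and 247 and 260 FPKM in treated Kasumi-1, against 151 and 159 FPKM in untreated Kasumi-1. The treated libraries of the lines overlapped in CTSD level, and the untreated ones did not.

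CTSH, an aminopeptidase, was the member that rose in HL60 and fell in Kasumi-1. It had 2.28 and 2.3 FPKM in treated HL60 and 0.917 and 0.849 FPKM in untreated HL60 (log2 0.81, adjusted p 0.00113). It had 2.05 and 2.62 FPKM in treated Kasumi-1 and 4.34 and 3.29 FPKM in untreated Kasumi-1 (log2 -0.53, adjusted p 0.0275). The groups did not overlap in either line, and the treated libraries of both lines sat near the same level. The Kasumi-1 fall lost its call without treated library 1 or untreated library 1 of Kasumi-1, or without either treated HL60 library. Among all genes, 2.11% rose in HL60 and fell in Kasumi-1. The remaining proteases were CTSA (a serine carboxypeptidase that also shields NEU1 and GLB1), CTSC (which activates granule serine proteases), CTSZ and TPP1. They rose in HL60 by 0.91, 0.66, 1.10 and 0.49 on the log2 scale, in that order. TPP1, a tripeptidyl peptidase, rose in Kasumi-1 too (0.55), and its difference between lines of 0.07 ± 0.12 (SE) did not pass. CTSC rose in Kasumi-1 as well (0.27, adjusted p 0.0103), a call lost with Kasumi-1 fitted alone or without untreated Kasumi-1 library 1. CTSA did not pass there (0.16, adjusted p 0.0549). It passed with the replicate number as a term, after median-ratio rescaling, after quantile normalization and with a filter at 5 FPKM. CTSZ did not pass in Kasumi-1, at 166 and 155 FPKM treated and 167 and 152 FPKM untreated. CTSL1, the cathepsin L gene, did not pass in either line. It stayed under 1 FPKM in all HL60 libraries, and RefSeq names pseudogenes that could take some of its reads.

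The glycosidases went in both directions in HL60. NEU1, the lysosomal sialidase, rose the most of all 47 members, at 149 and 156 FPKM in treated HL60, against 23.2 and 22.2 FPKM in untreated HL60. That is a 6.71-fold difference of means and a log2 change of 2.69 ± 0.05 (adjusted p 1.51e-07). Kasumi-1 had 41 FPKM in both treated libraries, against 29.6 and 29.8 FPKM in the untreated ones. That change was 0.45 (adjusted p 0.00239), and the difference between lines was -2.24 (adjusted p 2.51e-06). In cells NEU1 works in a complex with the proteins of CTSA and GLB1, and the 3 genes did not move together: in HL60 CTSA rose (0.91) and GLB1, a beta-galactosidase, fell (-0.28, adjusted p 0.00838). The GLB1 call was lost without untreated HL60 library 1 or treated HL60 library 1.

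GLA, the alpha-galactosidase that is deficient in Fabry disease, rose in both lines and had the largest Kasumi-1 rise of any member. It had 104 and 101 FPKM in treated HL60 and 34.6 and 33.7 FPKM in untreated HL60 (2.99-fold, log2 1.55 ± 0.06, adjusted p 2.46e-06). It had 105 and 94.9 FPKM in treated Kasumi-1 and 52.4 and 48.9 FPKM in untreated Kasumi-1 (1.98-fold, log2 0.97 ± 0.06, adjusted p 0.00103). The treated libraries of both lines overlapped, and the untreated ones did not.

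MAN2B1, the lysosomal alpha-mannosidase and the glycosidase with the highest mean level, fell in HL60. It had 33.8 and 36.8 FPKM in treated HL60, against 85.9 and 93.9 FPKM in untreated HL60, a log2 change of -1.32 ± 0.06 (adjusted p 4.67e-06). In Kasumi-1 its groups did not overlap either but lay close, at 147 and 151 FPKM treated and 132 and 137 FPKM untreated (log2 0.15, adjusted p 0.139). MANBA, the beta-mannosidase that acts after it on the same sugar chains, rose in both lines, by 0.32 in HL60 and 0.69 in Kasumi-1. GUSB (beta-glucuronidase) and NAGLU (alpha-N-acetylglucosaminidase) fell in HL60, with log2 changes of -0.55 and -0.54. GUSB has many named pseudogenes in RefSeq, and its reads are uncertain for that reason. HEXA, the alpha subunit of beta-hexosaminidase, did not pass in HL60 (log2 -0.23, adjusted p 0.0538), though it passed as lower there when HL60 was fitted alone, after quantile normalization or without any 1 Kasumi-1 library (0.00153 to 0.213 over the alternatives). It rose in Kasumi-1 (0.41, adjusted p 0.0216), a call lost without untreated library 2 or treated library 1 of Kasumi-1. GAA, the acid alpha-glucosidase that degrades glycogen, did not pass in either line and stayed under 1 FPKM in all HL60 libraries.

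Among the sulfatases, IDS, which removes sulfate from heparan and dermatan sulfate, was the one that rose in HL60. It had 30.2 and 26.1 FPKM in treated HL60, against 5.08 and 6.31 FPKM in untreated HL60 (4.94-fold, log2 2.13 ± 0.11, adjusted p 5.94e-06). In Kasumi-1 its groups overlapped, at 8.81 and 9.54 FPKM treated and 8.92 and 8.51 FPKM untreated. A pseudogene of IDS is named in RefSeq. ARSA, which desulfates sulfatide, had 5.35 and 4.88 FPKM in treated HL60 and 5.52 and 5.32 FPKM in untreated HL60, and 4.16 and 4.05 FPKM in treated Kasumi-1 and 3.41 and 3.25 FPKM in untreated Kasumi-1. Its Kasumi-1 rise (0.24, adjusted p 0.0461) lost its call when any 1 of the 8 libraries was left out. ARSB, which desulfates dermatan and chondroitin sulfate, had 12.7 and 12.2 FPKM in treated HL60 and 12.6 and 12.7 FPKM in untreated HL60, and did not pass there. It rose in Kasumi-1, with 10.8 and 11.1 FPKM treated and 7.85 and 7.96 FPKM untreated (0.42, adjusted p 0.00357).

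The lipid hydrolases and their activators were the one role that mostly fell in HL60. LIPA, the acid lipase that frees cholesterol and fatty acids from lipoproteins taken up by the cell, had 0.892 and 1.39 FPKM in treated HL60, against 20.9 and 22.3 FPKM in untreated HL60. Its mean was 18.9-fold lower with the drug, and its log2 change of -3.41 ± 0.14 (adjusted p 2.17e-06) was the largest of any member in either direction. In Kasumi-1 LIPA had 13.2 and 15.2 FPKM treated and 19.2 and 22.6 FPKM untreated. That fall (-0.52, adjusted p 0.0343) lost its call when any 1 Kasumi-1 library or either untreated HL60 library was left out. The difference between lines, 2.88 (adjusted p 4.45e-05), was also the largest. The untreated lines had LIPA at similar levels. In RefSeq the LIPA locus overlaps IFIT genes, and how such reads were assigned is not given in the sources used here.

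SMPD1, acid sphingomyelinase, rose in both lines. It had 4.53 and 4.23 FPKM in treated HL60 and 1.48 and 1.58 FPKM in untreated HL60 (log2 1.09, adjusted p 1.26e-05), and 4.32 and 4.11 FPKM in treated Kasumi-1 and 2.17 and 2.11 FPKM in untreated Kasumi-1 (log2 0.73, adjusted p 0.00191). PSAP, the precursor of the saposins that present lipids to their hydrolases, had the highest mean level of all members in Kasumi-1. It had 177 and 192 FPKM in treated HL60, against 205 and 210 FPKM in untreated HL60. It had 415 FPKM in both treated Kasumi-1 libraries, against 355 FPKM in both untreated ones. The small HL60 fall (-0.17, adjusted p 0.0256) lost its call without untreated HL60 library 1, untreated library 2 or treated library 1, and the small Kasumi-1 rise (0.23, adjusted p 0.0254) without any 1 Kasumi-1 library. GM2A, the activator for ganglioside breakdown by HEXA, fell in HL60 (-0.84, adjusted p 0.000245) and did not pass in Kasumi-1 (0.33, adjusted p 0.0507, with a range of 0.00788 to 0.201 over the alternatives). It passed there after median-ratio rescaling, after quantile normalization and with a filter at 5 FPKM. ASAH1 (acid ceramidase), PPT1 (palmitoyl-protein thioesterase), PSAP, GLB1 and GUSB made up the 5 members that fell in HL60 and rose in Kasumi-1, a pattern of 1.97% of all genes. Of the 5, ASAH1 alone kept both calls in every alternative, with 24.7 and 22.8 FPKM in treated HL60 against 30.4 and 30.2 untreated, and 55.5 and 54.7 FPKM in treated Kasumi-1 against 40.2 and 41 untreated. The difference between lines was called for all 5.

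**Figure D3:**
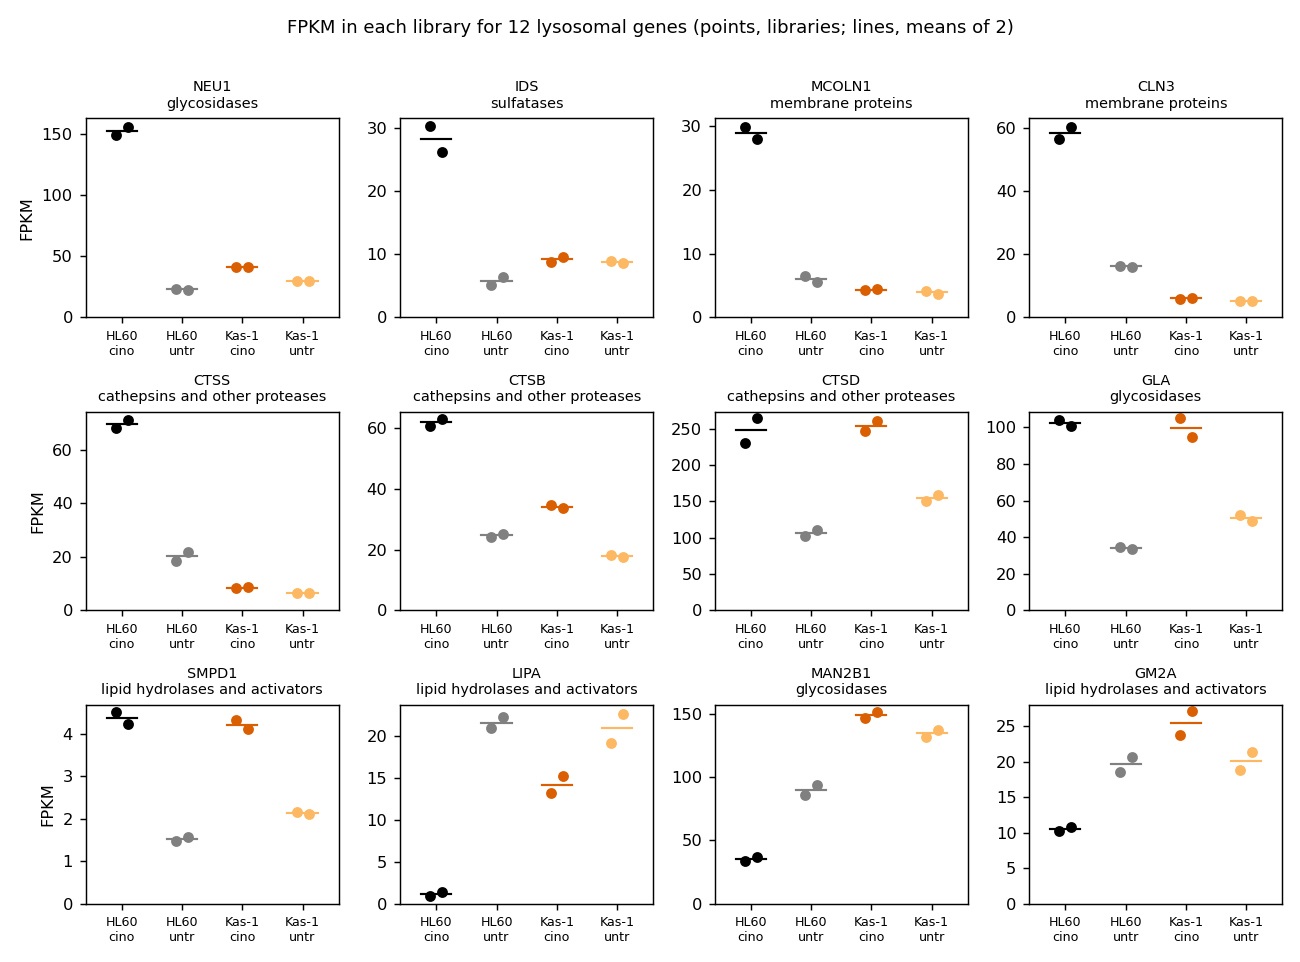
FPKM of 12 members in each of the 8 libraries (points) with the mean of each group of 2 (lines), on linear axes that start at 0, with treated cells left of untreated ones within each line. NEU1, IDS, MCOLN1, CLN3 and CTSS stand high in treated HL60 only, CTSB, CTSD, GLA and SMPD1 stand high in the treated cells of both lines, and LIPA is near 0 in treated HL60.

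All 6 membrane proteins rose in HL60, and 2 did in Kasumi-1. MCOLN1, the calcium release channel of the lysosome also called TRPML1, had 29.9 and 28 FPKM in treated HL60, against 6.46 and 5.57 FPKM in untreated HL60 (4.81-fold higher, adjusted p 2.56e-06). Kasumi-1 libraries had 4.27 and 4.36 FPKM treated and 4.15 and 3.64 FPKM untreated, a log2 change of 0.12 that did not pass (adjusted p 0.366). The difference of -1.98 (adjusted p 3.69e-05) was among the 6 largest. CLN3, a membrane protein whose gene is mutated in juvenile Batten disease, had 56.7 and 60.3 FPKM in treated HL60, against 16.4 and 16 FPKM in untreated HL60 (log2 1.79, adjusted p 8.8e-07). In Kasumi-1 it had 5.84 and 6.1 FPKM treated and 4.99 and 5.15 FPKM untreated (0.20, adjusted p 0.0439), a call lost when any 1 of the 8 libraries was left out.

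LAMP1, an abundant glycoprotein coat of the lysosomal membrane, had the highest mean over all 8 libraries in this role, at 180 and 191 FPKM in treated HL60 and 125 and 128 FPKM in untreated HL60 (log2 0.55, adjusted p 0.00013). In Kasumi-1 its groups lay apart by less than their own width, at 85.8 and 92.8 FPKM treated and 83 and 84.6 FPKM untreated (adjusted p 0.288). LAMP2, its relative, rose by 0.64 in HL60 and did not pass in Kasumi-1 (0.27, adjusted p 0.18). With the replicate number as a term in the model, it passed in Kasumi-1 (adjusted p 0.00849), and so did its difference between lines. SCARB2, which carries the enzyme beta-glucocerebrosidase to the lysosome, had 3.53 and 3.2 FPKM in treated HL60 and 2.19 and 2.13 FPKM in untreated HL60. It had 16.1 and 17.7 FPKM in treated Kasumi-1 and 12.2 and 12.7 FPKM in untreated Kasumi-1. Its log2 changes of 0.47 in HL60 and 0.41 in Kasumi-1 were both called, the second not without untreated Kasumi-1 library 1, and their difference of -0.05 ± 0.10 did not pass. CTNS, the cystine exporter, had 4 and 3.44 FPKM in treated HL60 and 2.38 and 2.55 FPKM in untreated HL60 (log2 0.44, adjusted p 0.00446). It had 3.35 and 2.85 FPKM in treated Kasumi-1 and 3.32 and 3.21 FPKM in untreated Kasumi-1, which overlap. CTNS overlaps TAX1BP3 in RefSeq.

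The V0 and accessory members all rose in HL60, by 0.72 to 2.13 on the log2 scale (median 1.72). ATP6V0D1, the d subunit that links the central stalk to the V0 ring, had 139 and 146 FPKM in treated HL60, against 31.3 and 32.2 FPKM in untreated HL60 (4.48-fold, log2 2.13 ± 0.05, adjusted p 2.66e-07). In Kasumi-1 it had 56.6 and 58.2 FPKM treated and 46.3 and 46.5 FPKM untreated (0.30, adjusted p 0.00629), a difference between lines of -1.83 (adjusted p 5.01e-06). ATP6V0B, a proteolipid of the rotor ring, had the highest level of all members by its mean over all 8 libraries, at 798 and 737 FPKM in treated HL60 and 235 and 216 FPKM in untreated HL60. In Kasumi-1 it had 179 and 170 FPKM treated and 148 and 135 FPKM untreated. Its changes were 1.76 (adjusted p 2.74e-06) in HL60 and 0.30 (adjusted p 0.0314) in Kasumi-1, the second lost when any 1 Kasumi-1 library was left out. ATP6V0C, the other proteolipid, rose by 1.69 in HL60 and 0.56 in Kasumi-1, though RefSeq names pseudogenes of it, as it does for ATP6V0E1, which rose by 1.45 in HL60.

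ATP6AP1, the accessory protein Ac45, rose in both lines. It had 103 and 109 FPKM in treated HL60 and 64.2 and 63.2 FPKM in untreated HL60, and 78.9 and 78.8 FPKM in treated Kasumi-1 and 49.4 and 48.2 FPKM in untreated Kasumi-1. The log2 changes were 0.72 in HL60 and 0.68 in Kasumi-1, and the difference of -0.04 ± 0.07 did not pass (adjusted p 0.597). ATP6V0A1, the a1 form of the large proton-path subunit, had 20.4 and 20.9 FPKM in treated HL60, against 4.77 and 5.16 FPKM in untreated HL60 (4.15-fold, log2 1.86, adjusted p 1.45e-06). In Kasumi-1 it was listed at 0 in both treated libraries and at 0.0737 and 0.0268 FPKM in the untreated ones. It passed the filter through HL60 alone, so its line difference follows from that. The other a isoforms did not follow it: TCIRG1 (a3) had 70.9 and 63.9 FPKM in treated HL60 and 98.3 and 87.6 FPKM in untreated HL60 (log2 -0.46, adjusted p 0.0013). ATP6V0A2 (a2) had 5.16 and 5.28 FPKM in treated HL60 and 9.58 and 9.92 FPKM in untreated HL60 (log2 -0.79, adjusted p 0.000309). TCIRG1 and ATP6V0A2 are not among the 48 genes and were added after their values were seen.

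All 8 V1 members rose in HL60, by 0.52 to 2.12 (median 1.19). ATP6V1B2, a nucleotide-binding subunit of the ATPase head, had 177 and 176 FPKM in treated HL60, against 40.2 and 39.5 FPKM in untreated HL60 (4.43-fold, log2 2.12 ± 0.06, adjusted p 4.76e-07). ATP6V1A, which carries the catalytic site and pairs with it in the head, rose less, by 0.89 (adjusted p 0.00134). In Kasumi-1 ATP6V1B2 had 30.7 and 28.9 FPKM treated and 24.5 and 22.6 FPKM untreated (0.33, adjusted p 0.00883), a call lost with Kasumi-1 fitted alone. ATP6V1F, a small subunit of the central stalk, had the highest V1 level by its mean over all 8 libraries and the smallest V1 rise in HL60. It had 132 and 120 FPKM in treated HL60, 88.6 and 86.8 FPKM in untreated HL60, 191 and 159 FPKM in treated Kasumi-1 and 144 and 131 FPKM in untreated Kasumi-1. Its Kasumi-1 call (0.34, adjusted p 0.0463) was lost when any 1 library but treated Kasumi-1 library 2 was left out. ATP6V1D, the rotor axle, had 16.4 FPKM in both treated HL60 libraries and 6.59 and 6.52 FPKM in untreated HL60. In Kasumi-1 it had 12.3 and 12.6 FPKM treated and 12.8 and 13.2 FPKM untreated, lower in both treated libraries but not past the test (log2 -0.06, adjusted p 0.44). ATP6V1C1, ATP6V1E1, ATP6V1G1 and ATP6V1H, of the stalks and the regulatory end, rose by 0.86 to 1.42 in HL60 and did not pass in Kasumi-1. With the replicate number as a term in the model, ATP6V1E1 passed in Kasumi-1 (adjusted p 0.0217). RefSeq names pseudogenes of ATP6V1E1, ATP6V1F and ATP6V1G1.

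**Figure D4:**
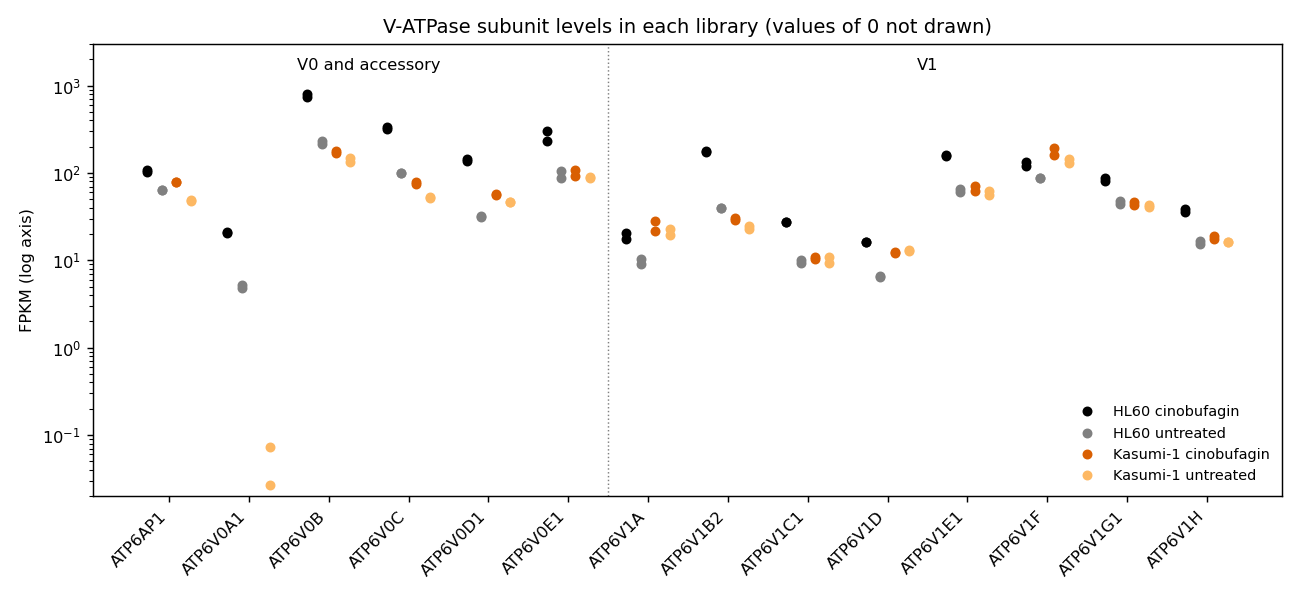
FPKM (log axis) of the 14 V-ATPase genes in each of the 8 libraries, V0 and accessory left and V1 right, in the order treated HL60, untreated HL60, treated Kasumi-1, untreated Kasumi-1. For each gene both treated HL60 points lie above both untreated HL60 points, and ATP6V0A1 is near 0 in Kasumi-1, where the treated values of 0 are not drawn.

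Without the drug, many of the members differed in level between the lines, as many genes of the whole table did. Set against untreated HL60, untreated Kasumi-1 had 22 members higher and 15 lower, with 35.9% of all genes higher and 33.8% lower, and 10 did not pass. Both Kasumi-1 libraries lay above both HL60 ones for 23 members and below them for 17, with 43.0% and 41.5% of all genes doing the same. The glycosidases leaned to Kasumi-1, with 6 of 9 higher and 0 lower, and 4 of 6 membrane proteins were lower in Kasumi-1. GAA differed most: it had 81.7 and 87.3 FPKM in untreated Kasumi-1 and 0.494 and 0.542 FPKM in untreated HL60, and it passed the filter through Kasumi-1 alone, as did CTSL1. CTSZ, a carboxypeptidase, had 167 and 152 FPKM in untreated Kasumi-1 and 26.5 and 21.2 FPKM in untreated HL60 (log2 2.70 ± 0.11, adjusted p 1.64e-06). SCARB2 was 5.75-fold higher in Kasumi-1 (log2 2.09, adjusted p 1.04e-06). Lower in Kasumi-1 were CTSS at 6.49 and 6.51 FPKM, against 18.6 and 21.9 FPKM in HL60 (log2 -1.50, adjusted p 6.36e-06), and CLN3 (log2 -1.50, adjusted p 1.29e-06). CTSA was lower in Kasumi-1 as well (log2 -1.16, adjusted p 1.94e-06).

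By level, the untreated lines shared much of their upper ranks. ATP6V0B (225 FPKM mean), PSAP (207) and LAMP1 (127) were highest in untreated HL60, and PSAP (355), CTSZ (159) and CTSD (155) in untreated Kasumi-1, where the libraries of CTSZ and CTSD overlap. Below LAMP1 in HL60 came CTSD (106 ± 5.8, SD of 2 libraries), CTSC (101 ± 1.2) and ATP6V0C (100 ± 0.31), whose libraries overlap. After the drug, ATP6V0B (767 ± 43 FPKM), ATP6V0C (325 ± 11) and ATP6V0E1 (266 ± 49) led in treated HL60, all V0 genes, though the libraries of ATP6V0E1 overlap those of CTSD (248 ± 25). In treated Kasumi-1 PSAP (415 ± 0.18) stayed first and CTSD (253 ± 8.7) was next.

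**Figure D5:**
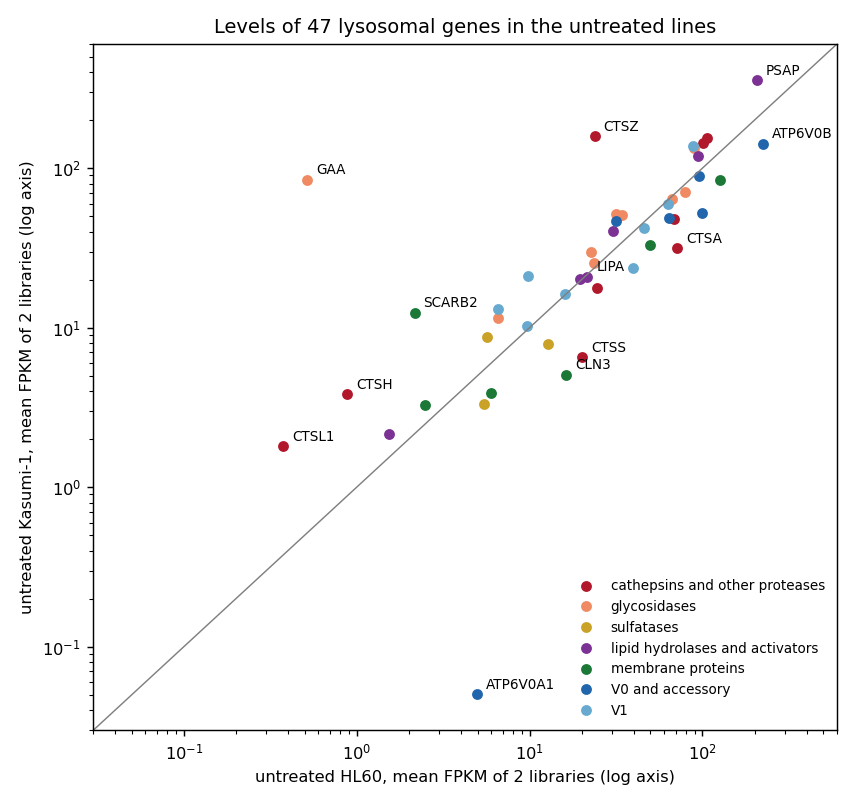
Mean FPKM of 47 members in untreated Kasumi-1 (vertical) and untreated HL60 (horizontal), on log axes with the line of equal level, coloured by role. GAA, at 84.5 FPKM in Kasumi-1 and 0.518 FPKM in HL60, and ATP6V0A1, at 0.0502 FPKM in Kasumi-1 and 4.97 FPKM in HL60, lie farthest from the line.

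Genes of the MiT/TFE factors and of the complexes around mTORC1 also changed in HL60. TFE3 had 29.9 and 33 FPKM in treated HL60, against 5.64 and 5.14 FPKM in untreated HL60 (log2 2.34 ± 0.07, adjusted p 8.34e-07). It had 7.91 and 8.03 FPKM in treated Kasumi-1 and 5.72 and 5.99 FPKM in untreated Kasumi-1 (0.39, adjusted p 0.012). TFEB rose to 2.35 and 2.59 FPKM in treated HL60, against 0.619 and 0.466 FPKM in untreated HL60 (log2 1.17), and did not pass in Kasumi-1 (0.05). MITF rose in HL60 as well (0.57), and TFEC fell (-0.45). Factor activity, which depends on where the protein sits, was not measured. MYC, another factor that binds CACGTG, had 30.3 and 29.2 FPKM in treated HL60, against 786 and 749 FPKM in untreated HL60 (log2 -4.64, adjusted p 7.85e-08). It had 199 and 202 FPKM in treated Kasumi-1 and 308 and 310 FPKM in untreated Kasumi-1 (-0.62, adjusted p 0.00124).

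Of 15 listed genes for mTORC1 docking at the lysosome, 13 had a row, of which 8 rose and 3 fell in HL60 and 1 rose and 0 fell in Kasumi-1. Over all genes tested, 36.0% rose and 37.6% fell in HL60, and 10.1% rose and 16.2% fell in Kasumi-1. FLCN, part of the complex that acts on the Rag GTPases, rose by 1.87 in HL60 and 0.51 in Kasumi-1. LAMTOR3, of the Ragulator anchor, rose by 1.66 in HL60, and so did FNIP2 (1.49), a partner of FLCN, and RRAGC (1.09), a Rag GTPase. Of 9 genes that deliver hydrolases, 5 rose and 2 fell in HL60, and 3 rose and 1 fell in Kasumi-1. The mannose 6-phosphate receptors IGF2R (1.62) and M6PR (0.89) rose in HL60. NAGPA, which uncovers the mannose 6-phosphate tag, fell in both lines (-0.94 in HL60 and -0.41 in Kasumi-1).

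Lysosomal genes outside the 48 were counted in the same way, beside 36.0% of all genes that rose and 37.6% that fell in HL60 and 10.1% and 16.2% in Kasumi-1. Among 27 other hydrolases and activators, 9 rose and 14 fell in HL60 (median -0.28), and 6 rose and 1 fell in Kasumi-1 (median 0.11). CTSW (-2.23) and MAN2B2 (-1.09) fell in HL60. Among 15 other membrane and luminal proteins tested, 11 rose and 4 fell in HL60 (median 0.57), and 5 rose and 0 fell in Kasumi-1. CD63 rose by 1.23 in HL60 and 0.68 in Kasumi-1, and LAPTM5 by 0.97 and 1.10 in the same order. Among 14 other V-ATPase subunits and assembly factors tested, 7 rose and 5 fell in HL60 (median 0.14), and 4 rose and 1 fell in Kasumi-1. WDR7, of the complex that helps V1 and V0 assemble, rose (1.23), and CCDC115 (-1.54) and ROGDI (-1.47) fell. These lists are described by their counts and medians, and no test compared them with the 48 genes.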

How the data were processed

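The deposited table holds 1 FPKM value per gene and library, made by the authors. The submitters' processing notes name the build hg19 and the tools Cufflinks 2.2.1, HISAT2 2.1.0 and bcl2fastq 2.20.0. Per the labels' protocols, libraries came from a stranded poly(A) kit. Annotation, strand setting, filters and read totals: not given in the sources used here. Reads of overlapping genes and of pseudogenes are uncertain for that reason. RefSeq names pseudogenes for 11 members: CTSL1, LGMN, GUSB, IDS, GM2A, LAMP1, ATP6V0C, ATP6V0E1, ATP6V1E1, ATP6V1F and ATP6V1G1. The scripts read all 8 columns, leaving out 0. FPKM is scaled within a library, and relative depth was read from genes of low FPKM.

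Values were taken as log2(FPKM + 1) for the 12511 genes that reached 1 FPKM in 2 or more libraries, and 13082 rows were not tested. A limma 3.58.1 model in R 4.3.3 with 1 mean per group, 4 residual degrees of freedom and an intensity trend was fitted to all of them, with Benjamini-Hochberg adjustment within each contrast. An adjusted p under 0.05 is a call. Changes of genes near 1 FPKM come out too small on this scale, and folds are ratios of mean FPKM. The labels do not say whether libraries 1 and 2 are separate cultures: the p-values cover the spread between libraries, which may be technical. A permutation of 2 against 2 libraries cannot go below a two-sided p of 0.33 and was not used. The fit was also run on simulated data, with far fewer changed genes than were called in HL60. That run does not measure the error of the calls given here. Alternatives were a pseudocount of 0.1, other filters, 2 rescalings, no trend, each line alone, the replicate number as a term, and leaving out each library.

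Members, lists and roles were chosen with earlier results of these data known. Values in every library are printed, per role, for the largest change in each direction and line, the highest mean level and the 6 largest differences between lines, and for a few others. For lists outside the members, up to 4 genes by adjusted p in HL60 and 2 in Kasumi-1 are named. Promoters were matched to RefSeq (GRCh38.p14) by symbol. Printed were those with CACGTG that rose in both lines and 2 changed members without it, none from chromosome 8.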

Additional observations from a re-analysis of the deposited data

Results flagged for a closer look

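The drug change differed between the lines for 40 of the 47 tested members, by the interaction term of the limma model (Kasumi-1 minus HL60, adjusted p under 0.05), where 63.1% of all genes tested did so. All values here are differences of log2 changes.

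The difference was negative for 27 members. Among proteases it was -1.39 for CTSS, -1.33 for CTSH, -1.08 for CTSZ, -0.75 for CTSA, -0.51 for CTSD, and -0.39 for both CTSB and CTSC. Among the other hydrolases it was -2.24 for NEU1, -2.06 for IDS, -0.59 for GLA and -0.36 for SMPD1. For membrane proteins it was -1.98 for MCOLN1, -1.59 for CLN3, -0.50 for CTNS and -0.46 for LAMP1. In the V0 sector it was -1.93 for ATP6V0A1, -1.83 for ATP6V0D1, -1.46 for ATP6V0B, -1.29 for ATP6V0E1 and -1.13 for ATP6V0C. ATP6V0A1 passed the filter through HL60 alone and had at most 0.0737 FPKM in Kasumi-1, so its difference only restates its HL60 rise. In V1 it was -1.79 for ATP6V1B2, -1.37 for ATP6V1C1, -1.26 for ATP6V1D, -1.15 for ATP6V1E1, -1.02 for ATP6V1H, -0.79 for ATP6V1G1 and -0.67 for ATP6V1A. The calls for SMPD1, CTNS and ATP6V1A were each lost without 1 or more libraries, untreated HL60 library 1 among them in each case.

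The difference was positive for 13 members, all of them hydrolases or activators. It was 2.88 for LIPA, 1.47 for MAN2B1, 1.16 for GM2A, 0.85 for GLB1, 0.82 for GUSB, 0.77 for ASAH1, 0.64 for HEXA, 0.56 for NAGLU, 0.44 for ARSB, 0.39 for PSAP, 0.37 for MANBA, 0.35 for PPT1 and 0.31 for ARSA. The ARSA call was lost without any 1 of 6 libraries. No difference was called for CTSL1, TPP1, GAA, LAMP2, SCARB2, ATP6AP1 and ATP6V1F, though that of LAMP2 was called with the replicate number as a term.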

How the results depend on the processing

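In HL60, 728 of 748 alternative values of single members kept direction and side of the threshold: all 33 rises did, and of the 9 falls GLB1 and PSAP did not. The numbers for the difference between lines were 678 of 701, for the untreated lines 685 of 701, and for Kasumi-1 635 of 748. With 2 libraries a group and no read totals, no counting error could be set and small changes are limited by the spread between libraries. The cause of the moves below was not tested, beyond the smaller samples of some fits.

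Kasumi-1 counts moved most. Leaving out a library gave 15 to 20 members higher and 0 to 1 lower, and 635 to 1018 genes higher and 1019 to 1723 lower, where the fit with all libraries gave 25, 2, 1266 and 2026. Kasumi-1 fitted alone gave 13 members higher, 0 lower, 398 genes higher and 642 lower. Members lower were 1 with a pseudocount of 0.1, 1 with a filter at 5 FPKM and 0 with no filter. CTSH, at most 4.34 FPKM in any library, was not tested under the filter at 5 FPKM, so its call there was not lost by a test.

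The replicate numbers are shared across groups, but no label ties them to a batch. Deviations of same-numbered libraries had correlations of 0.244 in HL60 and 0.331 in Kasumi-1 over 12511 genes. With the replicate number as a block, Kasumi-1 had 31 members higher and 1 lower (1849 and 2865 genes), and HL60 33 and 10. LAMP2 passed under the block in Kasumi-1 (adjusted p 0.00849) and in the difference between lines (0.00279).

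Signs of values that passed in neither fit turned in 25 cases. Under quantile normalization these were ARSA in HL60 (0.03), CTSL1 in Kasumi-1 (0.01) and the line differences of GAA (-0.04) and ATP6AP1 (0.10). Under median-ratio rescaling they were ARSB in HL60 (0.03) and CTSL1 in Kasumi-1 (0.00). Leaving out a library gave -0.02 to 0.03 for GAA and -0.05 to 0.00 for ARSB in HL60. In Kasumi-1 it gave -0.30 to 0.23 for CTSL1, -0.05 to 0.08 for CTSZ, -0.00 to 0.05 for NAGLU, -0.15 to 0.03 for CTNS and -0.05 to 0.15 for ATP6V1C1. For the difference of changes it gave -0.01 to 0.14 for TPP1 and -0.12 to 0.01 for SCARB2. Between untreated lines it gave -0.16 to 0.06 for LIPA, -0.06 to 0.12 for GM2A, -0.22 to 0.03 for ATP6V0E1, -0.03 to 0.17 for ATP6V1C1 and -0.02 to 0.08 for ATP6V1H.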
